A study of Mus musculus with 6 samples.

Results

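The guidance genes described here are the semaphorins, Slits, netrins and ephrins and their receptors, the plexins, neuropilins, Robos, Unc5 receptors and Eph receptors. They were every gene of the deposited table whose symbol carried one of these family names, whatever its values. The rule found 62 of the 16894 genes listed, and 59 of the 62 were among the 14776 genes with enough reads to be tested. A single match, Unc50, shares only the letters of the Unc5 receptors and is not a guidance receptor. It was at 38.6 ± 2.01 CPM in control and 38.6 ± 3.099 CPM in senescent libraries (SD, n = 3). The other 61 genes were 34 ligands and 27 receptors.

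The libraries were bulk mRNA sequencing of fibro-adipogenic progenitors (FAPs), mesenchymal cells of skeletal muscle that lie between the fibers and can give rise to fibroblasts and adipocytes. The FAPs came from the quadriceps, gastrocnemius and tibialis anterior of male and female C57BL/6 mice 3 to 6 months of age, and were enriched on magnetic beads as SCA-1+ cells lacking CD45, CD31 and α7-integrin. The 3 control libraries were of non-senescent FAPs, for which no vehicle is named. The 3 senescent libraries were of FAPs given 20 μM of etoposide, which breaks DNA by trapping topoisomerase on it, for 48 h and then 5 days in normal medium. Nothing in the sources used here says whether libraries of a group came from separate cultures or animals, so p-values measure only the spread between these libraries, which may be technical.

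Guidance proteins were first described in growing axons, where a ligand on or released by one cell attracts or repels the cell that carries its receptor. Class 3 semaphorins, Slits and netrins are released, while ephrins and most other semaphorins stay on the membrane and act on touching cells. Semaphorins signal through plexins, with neuropilins as co-receptors for the released class. Slits bind Robos, netrins bind DCC, neogenin and the Unc5 receptors, and ephrins bind Eph receptor tyrosine kinases. Outside the nervous system the same proteins act on vessels, fibroblasts and immune cells and set where cells settle and how they spread, and ephrin-B1 on one cell binds EphB receptors on its neighbours.

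Values are CPM, the counts of a gene relative to the library's edgeR-scaled total, and 1 read was worth 0.0167 to 0.0225 CPM. Reads on genes ran from 48865531 to 59912520 in control libraries and from 41412179 to 54975944 in senescent ones. The senescent label was matched by Cdkn1a, the p21 cell cycle inhibitor, at 290 ± 40.5 CPM in control and 1038 ± 21.4 CPM in senescent libraries, and by the proliferation gene Mki67 at 158 ± 78.6 and 12.7 ± 5.49 CPM. It was not matched by Cdkn2a, which encodes p16, at 85.5 ± 38.2 and 90.0 ± 23.2 CPM (Benjamini-Hochberg adjusted p = 0.765 in limma). Nor was it matched by Cdkn2b at 68.4 ± 17.9 and 83.9 ± 16.9 CPM (adjusted p = 0.282). The Cdkn2a value is of the whole gene, not of the p16 transcript alone. By qPCR the paper reported more p16 in etoposide-treated FAPs. Of 10 FAP markers, all were listed, 5 rose and 1 fell (60.0% called, beside 46.1% of all genes). Pdgfra stood at 192 ± 58.4 and 218 ± 35.7 CPM, and the 1 that fell, Col1a1, dropped from 15545 ± 5576 to 3116 ± 876 CPM. Thy1 had 489, 41.3 and 61.6 CPM in control and 615, 70.9 and 73.6 CPM in senescent replicates 1, 2 and 3. For this marker replicate 1 thus stood apart in both groups, and why was not tested. Among markers of other cells, 6 of 11 leukocyte genes were listed and summed to 9.24 to 12.3 CPM in control and 21.7 to 26.8 CPM in senescent libraries. Ptprc, Tyrobp, Adgre1, Cd3e and Cd79a were not in the table. Of the 4 tested, 3 rose (75.0% called, beside 46.1% of all genes). These were Cd53 (1.98 ± 1.67 to 11.4 ± 2.74 CPM), Cd68 (1.47 ± 0.350 to 4.81 ± 0.867 CPM) and the rare Itgam (0.0223 ± 0.0387 to 0.631 ± 0.178 CPM). Csf1r (6.74 ± 0.573 and 7.56 ± 0.489 CPM) did not pass the test. Myogenic markers (3 of 8 listed, without Pax7, Myf5, Myod1, Myog and Cdh15) summed to 15.2 to 19.5 and 24.3 to 31.3 CPM, and endothelial markers (5 of 9, without Tie1, Emcn, Cldn5 and Erg) to 19.3 to 40.1 and 25.5 to 32.8 CPM. In these lists Itga7 (11.1 ± 1.69 to 20.2 ± 4.05 CPM) and Pecam1 (0.706 ± 0.289 to 1.70 ± 0.152 CPM) rose. No other gene of either list passed the test. Schwann and nerve markers (7 of 8, without Sox10) summed to 440 to 575 CPM in control and 345 to 385 CPM in senescent libraries. Nearly all of that sum was Ncam1, which fell. In the same list S100b (3.83 ± 2.03 to 8.30 ± 1.51 CPM) and Ngfr (0.692 ± 0.177 to 1.64 ± 0.364 CPM) rose. Mural markers (6 of 6) summed to 285 to 396 and 235 to 267 CPM, most of it Cspg4. Cspg4 fell along with Mcam. Notch3 (19.8 ± 7.03 to 61.7 ± 7.03 CPM) and Rgs5 (1.32 ± 0.563 to 4.70 ± 1.10 CPM) rose. The part of any of these cells in the results below was not tested.

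All 3 netrins, Slit1, Slit3, ephrin-A3 (Efna3) and the semaphorins Sema3c, Sema4g, Sema5a and Sema6a were higher in senescent FAPs. The netrin receptor Unc5b, the plexin Plxna4, ephrin-B1 (Efnb1) and its receptor Ephb2 were all lower, each to about 0.5 of its control level (folds of 0.477 to 0.505). In this bulk RNA, fewer cells carrying a transcript and less of it per cell cannot be told apart.

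Each gene was tested with limma on log2(CPM + 0.5), and a gene counts as changed at a Benjamini-Hochberg adjusted p under 0.05 over all genes tested. On that scale the fold of a gene with few reads is understated. By this test 24 of the 59 tested genes changed (40.7%), against 46.1% of all genes tested. Of the 59, 17 were higher in senescent FAPs, where the rate over all genes was 21.8%, and 7 were lower, where it was 24.3%. The share called in either direction thus lay near that of all genes. By direction, rises were more frequent and falls less frequent than over all genes, a difference that was not tested. The median log2 fold change was 0.22 beside -0.03 for all genes. At the threshold the study used for its volcano plot, an unadjusted p under 0.01 with a log2 fold change beyond 1, 10 of the genes were higher (6.93% of all genes) and 2 lower (3.9% of all genes), beside 10.8% of all genes in either direction. The 3 libraries of one group did not overlap those of the other for 24 of the 59 genes (57.4% of all genes), with senescent higher for 18 (26.5% of all genes) and lower for 6 (30.9% of all genes).

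Of 33 ligands tested, 12 rose and 2 fell (42.4% called, beside 46.1% of all genes), with a median log2 fold change of 0.39. Of 25 receptors tested, 5 rose and 5 fell (40.0%), with a median of -0.07. Summed over all listed ligands, the level was 1303, 1399 and 1362 CPM in control replicates 1, 2 and 3 and 1642, 1604 and 1673 CPM in senescent replicates 1, 2 and 3. Summed receptors were lower in senescent FAPs, with 2226, 2590 and 2345 CPM in control and 2013, 2015 and 1860 CPM in senescent replicates 1, 2 and 3. Neither sum overlapped between the groups, but each separation rested on a single gene. Without Slit3 the ligand sums were 1173 to 1254 CPM in control and 1247 to 1379 CPM in senescent libraries, and without Unc5b the receptor sums were 1590 to 1803 and 1543 to 1649 CPM, and both overlapped. Both sums also depend on the scaling, since the CPM of all genes summed to 1063700 to 1090500 in control and 919760 to 934970 in senescent libraries. Sums under other scalings were not compared. No test of the difference between ligands and receptors was made, since genes are not replicates.

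**Figure D1:**
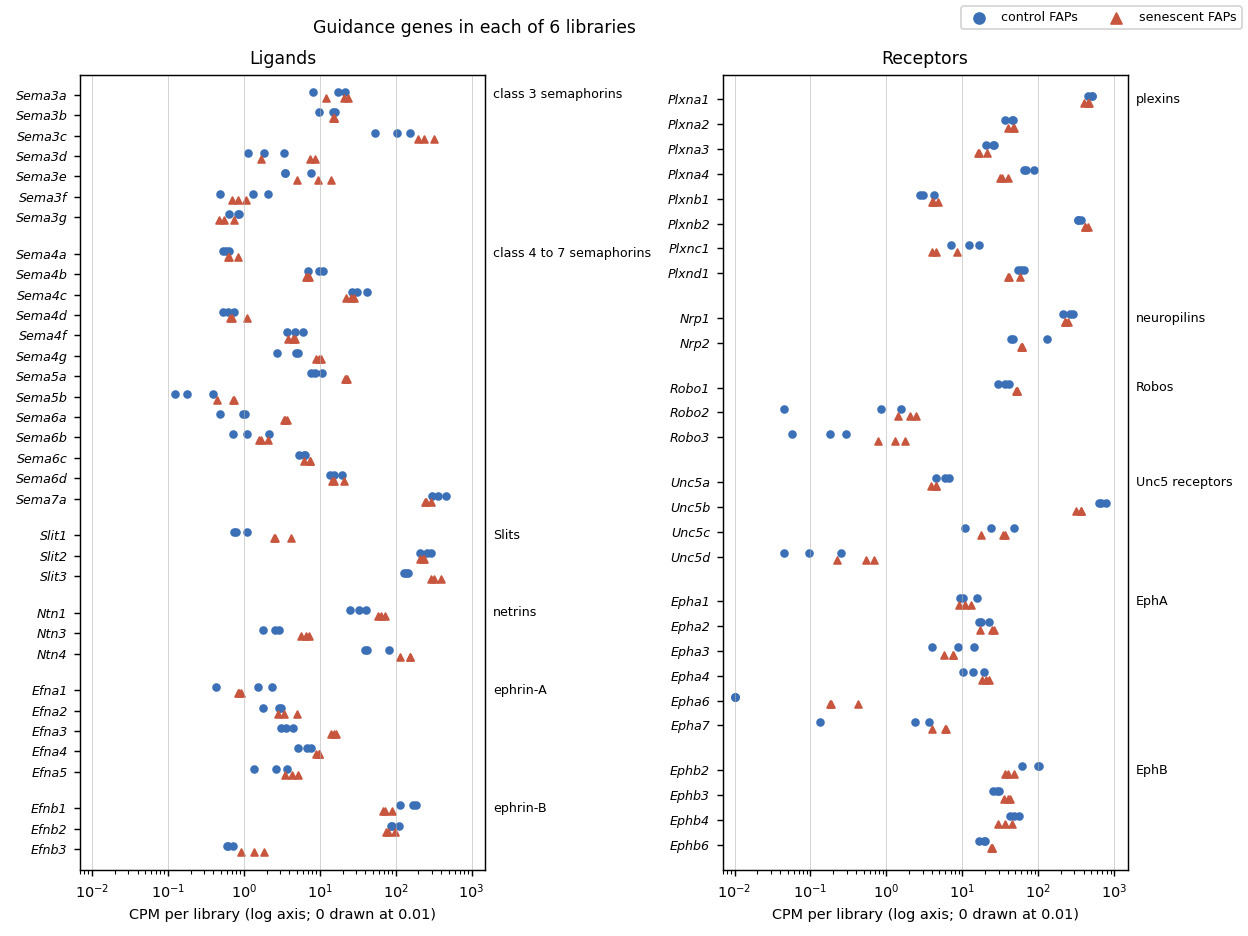
CPM of each guidance gene in each library on a log axis, ligands on the left and receptors on the right, with control FAPs as circles and senescent FAPs as triangles and a value of 0 drawn at 0.01. The senescent libraries lie to the right for the 3 netrins and for Slit1, Slit3 and Efna3, and to the left for Plxna4, Unc5b, Efnb1 and Ephb2.

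The netrins were the family in which every listed member rose. Ntn4, which encodes netrin-4, a netrin of basement membranes, had 39.9, 81.2 and 41.5 CPM in control replicates 1, 2 and 3 and 113, 154 and 156 CPM in senescent replicates 1, 2 and 3. Even the highest control, replicate 2, lay under the lowest senescent library, and the fold was 2.71 (log2 1.44, SE 0.27, 95% interval 0.81 to 2.06, adjusted p = 0.00438). Ntn1, the founding axon attractant, went from 33.2 ± 8.27 to 65.3 ± 7.03 CPM (SD, n = 3), a fold of 1.99 (log2 0.99, SE 0.18, adjusted p = 0.00363). Ntn3 stood much lower, at 1.79, 2.55 and 2.91 CPM in control and 5.76, 6.61 and 7.18 CPM in senescent libraries, with a fold of 2.43 (log2 1.28, SE 0.19, adjusted p = 0.00152). The groups did not overlap for any of the 3. A stretch of 89 exon bases of Ntn3, 1.77% of its exons, is shared on the same strand with Tbc1d24, which stood at 21.9 CPM in control and 30.7 CPM in senescent libraries. Per kb of exon, Ntn4 was the most abundant netrin in both groups, at 14.9 and 38.7 CPM per kb, followed by Ntn1 at 5.44 and 10.7 and Ntn3 at 0.479 and 1.29.

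The most abundant of their receptors moved the opposite way. Unc5b, which encodes a netrin receptor of the repelling, dependence receptor type, had 635, 787 and 661 CPM in control replicates 1, 2 and 3 and 367, 366 and 316 CPM in senescent replicates 1, 2 and 3. Every senescent library was far under every control one, and the fold was 0.505 (log2 -0.99, SE 0.11, 95% interval -1.24 to -0.73, adjusted p = 0.000573). With 14065 to 41377 reads per library, it was also among the most deeply counted of these genes. The other Unc5 receptors were lower in level and did not pass the test. Unc5a was at 5.94, 6.60 and 4.54 CPM in control and 3.91, 4.43 and 4.43 CPM in senescent libraries, which did not overlap (log2 -0.37, adjusted p = 0.103). Unc5c varied more within the control group, from 10.8 to 47.5 CPM, than between groups, and its log2 fold change of 0.29 became -0.25 without control replicate 1 (adjusted p = 0.668 with all libraries). Unc5d, at 0.0446 to 0.686 CPM, was too low to be tested. Per kb of exon Unc5b was at 118 CPM in control and 59.6 CPM in senescent FAPs, still above all the netrins and the other Unc5 receptors. Of the other netrin receptors, neogenin (Neo1) fell from 200 ± 16.8 to 130 ± 9.58 CPM (log2 -0.62, SE 0.09, adjusted p = 0.0015), and Dcc was not in the table.

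**Figure D2:**
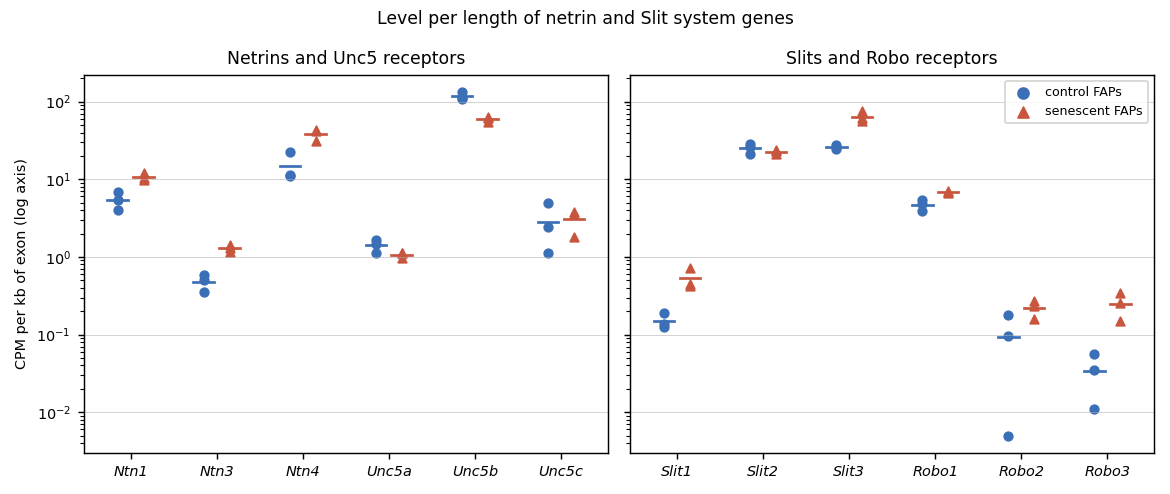
CPM per kb of exon on a log axis for the netrins with their Unc5 receptors (left) and the Slits with their Robo receptors (right), with a point for each library and a bar at the mean of each group of 3, and Unc5d left out. The netrins sit higher and Unc5b lower in senescent FAPs, and Slit3 leaves the level it shared with Slit2 in control FAPs.

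Ntn4, which rose, and Unc5b, which fell, had the highest level per kb of exon among the netrins and the Unc5 receptors. Since they moved in opposite directions, the bases just before a RefSeq start site of each are shown. Both are 250 bases of GRCm38.p6 read 5′ to 3′ toward the gene, with no annotated exon base in them. The Ntn4 window is chr10:93640799-93641048 on the plus strand and the Unc5b window chr10:60831582-60831831 on the minus strand. Capitals mark matches, on either strand, to any motif of the search described below. In both windows all of these are GC boxes (GGGCGG), with 4 before Ntn4, some of them overlapping, and 2 before Unc5b.
Ntn4: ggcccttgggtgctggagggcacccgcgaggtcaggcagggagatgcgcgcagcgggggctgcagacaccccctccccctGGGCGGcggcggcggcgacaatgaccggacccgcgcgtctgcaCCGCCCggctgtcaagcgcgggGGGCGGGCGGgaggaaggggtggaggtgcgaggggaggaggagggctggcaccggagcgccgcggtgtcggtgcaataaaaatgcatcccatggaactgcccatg
Unc5b: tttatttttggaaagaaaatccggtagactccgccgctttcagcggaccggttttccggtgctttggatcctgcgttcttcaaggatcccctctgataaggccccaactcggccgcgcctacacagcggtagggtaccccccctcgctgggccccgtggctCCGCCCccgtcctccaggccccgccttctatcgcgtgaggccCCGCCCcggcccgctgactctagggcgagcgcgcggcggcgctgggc

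Among the Slits, repellents cleaved from large secreted proteins, Slit3 and Slit1 rose and Slit2 did not pass the test. Slit3 had 129, 145 and 137 CPM in control replicates 1, 2 and 3 and 395, 319 and 294 CPM in senescent replicates 1, 2 and 3. The lowest senescent library was over 2 times the highest control, and the fold was 2.43 (log2 1.28, SE 0.12, 95% interval 1.01 to 1.55, adjusted p = 0.000303). Slit2 had 210, 259 and 289 CPM in control and 212, 229 and 238 CPM in senescent libraries, with groups that overlapped (log2 -0.15, 95% interval -0.43 to 0.13, adjusted p = 0.345). In control FAPs Slit2 and Slit3 were at a like level per kb of exon (20.99 to 28.80 and 24.73 to 27.72 CPM per kb), and in senescent FAPs Slit3, at 56.24 to 75.58, stood above Slit2, at 21.14 to 23.70. Slit1 was rare, at 0.803, 1.10 and 0.736 CPM in control and 2.50, 4.20 and 2.59 CPM in senescent libraries, and its fold was 2.56 (log2 1.36, SE 0.22, adjusted p = 0.00231).

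All 3 listed Robo receptors had higher means in senescent FAPs, and 2 of them, Robo1 and Robo3, passed the test. Robo1, the most abundant Robo per kb of exon, had 29.1, 40.8 and 36.3 CPM in control and 50.8, 53.2 and 52.4 CPM in senescent replicates 1, 2 and 3. The groups were apart, and its fold of 1.48 was smaller than that of Slit3 (log2 0.56, SE 0.12, 95% interval 0.28 to 0.85, adjusted p = 0.00791). Robo3, a divergent Robo known from midline crossing, had 3 to 89 reads per library and went from 0.176 ± 0.117 to 1.28 ± 0.502 CPM (SD, n = 3), a fold of 2.59 (log2 1.37, SE 0.25, adjusted p = 0.00377). Robo2 was at 0.0446, 1.58 and 0.844 CPM in control and 1.41, 2.43 and 2.07 CPM in senescent libraries, where the first control value stands for 2 reads (log2 1.08, SE 0.45, adjusted p = 0.0859, and 0.0128 with the replicate number as a block). Robo4 was not in the table.

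Of the ephrins, the membrane-held ligands, 3 rose (Efna3, Efna4 and Efnb3) and 1 fell (Efnb1). Efna3 encodes ephrin-A3, held in the membrane by a lipid anchor. It had the largest log2 fold change of the 59 guidance genes tested on the log2(CPM + 0.5) scale. In DESeq2 the rare Robo3 (2.93) and Sema6a (2.10) stood higher, beside 2.08 for Efna3. Efna3 had 4.44, 3.14 and 3.63 CPM in control replicates 1, 2 and 3 and 14.04, 15.4 and 16.5 CPM in senescent replicates 1, 2 and 3. The highest control was under 1 in 3 of the lowest senescent library, and the fold was 3.76 (log2 1.91, SE 0.15, 95% interval 1.56 to 2.26, adjusted p = 0.000208). Leaving out any 1 library gave a log2 fold change of 1.81 to 2.03. Efna4 rose less, from 7.59, 5.13 and 6.86 CPM to 9.69, 9.02 and 9.68 CPM, a fold of 1.43 (log2 0.52, SE 0.16, adjusted p = 0.03). Its call was lost without control replicate 3 (adjusted p = 0.059) or without senescent replicate 1, 2 or 3 (0.0741, 0.0736 and 0.0892). Efna1 (log2 -0.36, adjusted p = 0.449), Efna2 (0.45, adjusted p = 0.176) and Efna5 (0.71, adjusted p = 0.0895) did not pass the test. Parts of the exons of Efna3 (14.6% of its bases, Gm15998) and Efna4 (10.5%, 4731419I09Rik) lie under genes on the opposite strand that are not in the table, and whether counting used strand is not given in the sources used here.

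Efna1, Efna3 and Efna4 lie in a row on chromosome 3 (89271730-89280951, 89313899-89322939 and 89333393-89338028, GRCm38.p6, all on the minus strand). The gaps between them are 32.9 kb and 10.5 kb. The neighbours at the right end of this row, Efna3 and Efna4, rose, while Efna1 was at 2.34, 0.437 and 1.56 CPM in control and 0.913, 0.870 and 0.833 CPM in senescent libraries, with groups that overlapped. The 250 bases before a RefSeq start of each, in the same form as above, are chr3:89279646-89279895 for Efna1, chr3:89321769-89322018 for Efna3 and chr3:89338029-89338278 for Efna4, shown because neighbours on one strand differed in their fold. Capitals mark 2 GC boxes before Efna1, 3 before Efna3 (which has 70.4% G or C) and, before Efna4, a single p53 decamer, the repeat unit of the p53 binding element, 89 bases ahead of the start. The Efna1 and Efna3 windows belong to an inner start of each gene, since the bases before the outer one hold annotated exon.
Efna1: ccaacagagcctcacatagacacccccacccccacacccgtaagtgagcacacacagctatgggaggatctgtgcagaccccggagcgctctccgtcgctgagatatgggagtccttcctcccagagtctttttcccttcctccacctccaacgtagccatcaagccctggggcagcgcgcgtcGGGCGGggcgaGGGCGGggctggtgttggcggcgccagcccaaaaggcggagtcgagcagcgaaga
Efna3: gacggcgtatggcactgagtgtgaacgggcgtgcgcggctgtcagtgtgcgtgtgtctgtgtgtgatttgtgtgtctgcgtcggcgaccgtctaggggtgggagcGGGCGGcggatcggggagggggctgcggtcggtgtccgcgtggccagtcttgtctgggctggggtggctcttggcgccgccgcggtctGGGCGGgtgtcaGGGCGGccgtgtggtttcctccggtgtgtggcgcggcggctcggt
Efna4: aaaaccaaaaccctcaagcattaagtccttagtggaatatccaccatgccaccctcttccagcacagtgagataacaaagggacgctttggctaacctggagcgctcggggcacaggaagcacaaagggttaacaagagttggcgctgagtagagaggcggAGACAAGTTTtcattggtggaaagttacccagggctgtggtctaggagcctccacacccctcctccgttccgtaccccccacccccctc

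Efnb1 and Ephb2, a transmembrane ephrin and a receptor that binds it, fell together. Efnb1 had 184, 115 and 168 CPM in control replicates 1, 2 and 3 and 89.5, 72.6 and 67.9 CPM in senescent replicates 1, 2 and 3, a fold of 0.5004 (log2 -0.999, SE 0.18, 95% interval -1.42 to -0.58, adjusted p = 0.00389). Ephb2 had 102, 61.6 and 98.1 CPM in control and 47.6, 40.2 and 36.5 CPM in senescent libraries, a fold of 0.487 (log2 -1.04, SE 0.20, 95% interval -1.49 to -0.58, adjusted p = 0.00456). For both genes the groups were apart, and control replicate 2 was the lowest control. Efnb2, the ephrin-B known from arteries, was at 86.7 to 113 CPM in control and 75.5 to 98.3 CPM in senescent libraries (log2 -0.20, 95% interval -0.51 to 0.12, adjusted p = 0.265). Efnb3 was rare and rose from 0.651 ± 0.0557 to 1.36 ± 0.451 CPM (SD, n = 3; log2 0.67, adjusted p = 0.0301), with an adjusted p of 0.0521 to 0.0871 without any 1 library except senescent replicate 2 and 0.158 after quantile normalization. Efnb1 held the highest level of the ephrins per kb of exon in both groups, at 47.8 and 23.5 CPM per kb. The windows before the starts of this falling pair are chrX:99135811-99136060 (plus strand) for Efnb1 and chr4:136836013-136836262 (minus strand) for Ephb2. The Ephb2 window belongs to an inner start and lies within the gene, which spans 136647536-136836326. None of the motifs searched matched before Efnb1, so no letter of it is in capitals. An NF-kB site 211 bases ahead of the inner start was the only match in the Ephb2 window.
Efnb1: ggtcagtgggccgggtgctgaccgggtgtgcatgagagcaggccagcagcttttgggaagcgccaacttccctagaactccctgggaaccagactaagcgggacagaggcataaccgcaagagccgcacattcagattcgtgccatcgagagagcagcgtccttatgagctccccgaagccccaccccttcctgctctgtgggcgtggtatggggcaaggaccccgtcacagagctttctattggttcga
Ephb2: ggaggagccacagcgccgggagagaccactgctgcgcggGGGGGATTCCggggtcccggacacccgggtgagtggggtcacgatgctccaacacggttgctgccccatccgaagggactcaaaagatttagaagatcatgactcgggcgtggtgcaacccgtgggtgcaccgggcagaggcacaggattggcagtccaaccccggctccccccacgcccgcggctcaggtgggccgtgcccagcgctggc

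The other EphB genes did not follow Ephb2. Ephb3 had 28.8, 25.7 and 30.0 CPM in control and 42.4, 40.2 and 35.4 CPM in senescent libraries, and rose by a fold of 1.39 (log2 0.47, SE 0.10, adjusted p = 0.00752). Ephb6, whose kinase domain is inactive, rose from 18.5 ± 1.80 to 24.2 ± 0.433 CPM (log2 0.39, SE 0.10, adjusted p = 0.0162), with an adjusted p of 0.0544 without senescent replicate 2 and 0.0558 without senescent replicate 3. Ephb4, the partner of ephrin-B2 in veins and the most abundant EphB per kb of exon (11.02 CPM per kb in control and 8.54 in senescent FAPs), was at 55.2, 42.1 and 47.2 CPM in control and 45.2, 36.9 and 29.9 CPM in senescent libraries. Its groups overlapped (log2 -0.37, adjusted p = 0.0932, and 0.0232 with the replicate block). With Ephb2 lower, the summed EphB level was 149 to 202 CPM in control and 127 to 159 CPM in senescent libraries, which overlap.

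No EphA gene passed the test in limma, out of 5 tested, at adjusted p values of 0.0775 to 0.814, and none did in edgeR or DESeq2, while 2 (Epha4 and Epha7) had an unadjusted p under 0.05. Epha2, the most abundant per kb of exon, had 16.7, 22.5 and 17.4 CPM in control and 17.2, 24.9 and 26.1 CPM in senescent libraries (log2 0.25, SE 0.18, adjusted p = 0.294). The largest difference was that of Epha7, at 0.134, 3.67 and 2.35 CPM in control and 3.95, 5.97 and 6.05 CPM in senescent libraries. Its groups were apart, but control replicate 1 lay far below the other controls (log2 1.55, SE 0.63, 95% interval 0.09 to 3.01, adjusted p = 0.0775, and 0.0137 with the replicate block), and without that library the log2 fold change was 0.73 (adjusted p = 0.0563). Epha6 was listed at 0 in the 3 control libraries and at 21, 11 and 8 reads in senescent replicates 1, 2 and 3, which did not pass the filter. Against a floor of 3 reads per control library, its senescent mean was 4.39-fold higher. That floor covers counting error in the control libraries only, not the counting error or spread of the senescent values. Epha1 shares 236 exon bases, 6.97% of its exons, with Zyx on the opposite strand, and its log2 fold change was -0.07 (adjusted p = 0.814).

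**Figure D3:**
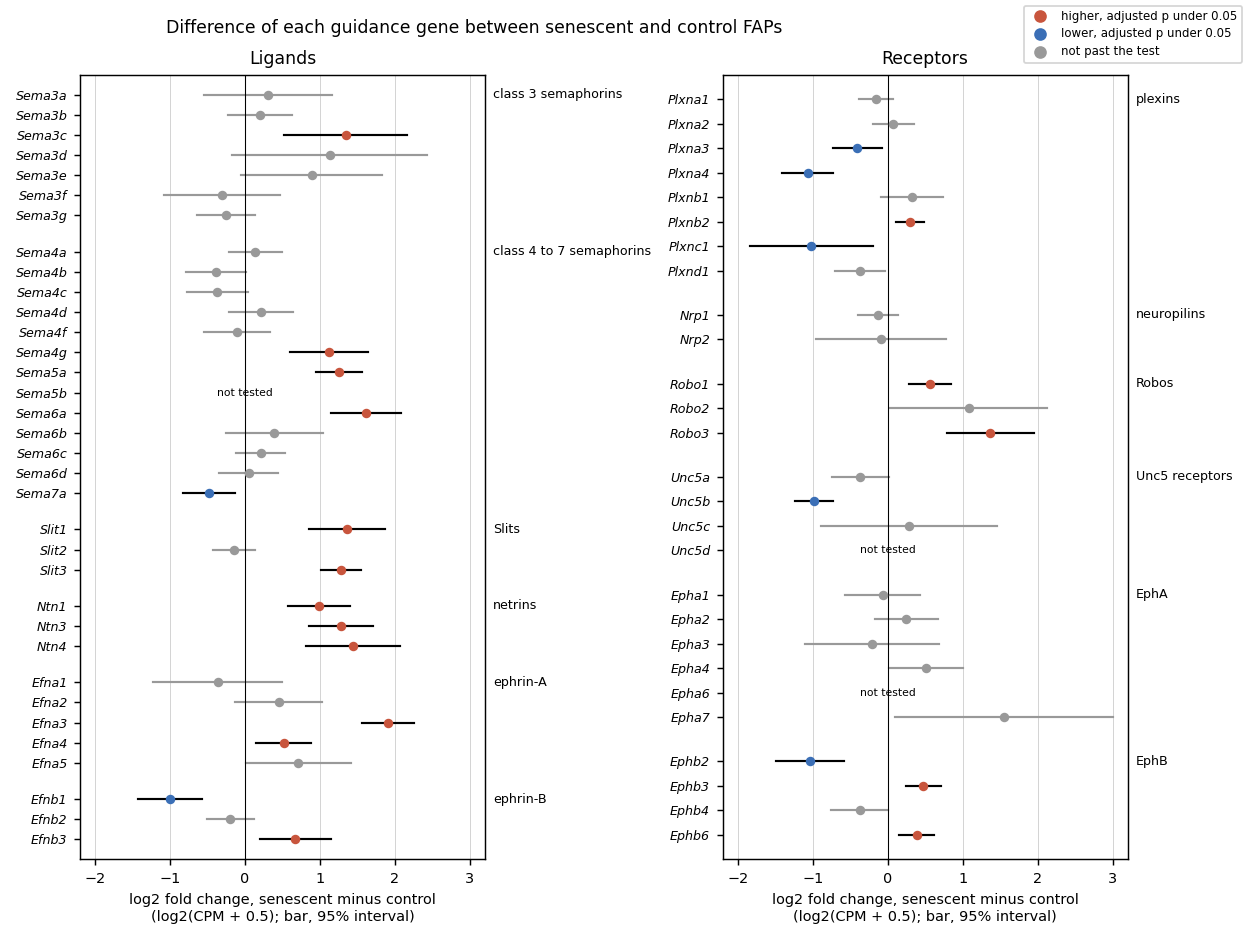
Log2 fold change of each guidance gene, senescent minus control, on the log2(CPM + 0.5) scale, with the 95% interval of the limma fit as a bar and color for the genes past an adjusted p of 0.05. On this scale Efna3 has the largest rise at 1.91, and Plxna4, Ephb2, Plxnc1, Efnb1 and Unc5b form the group near -1.

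The released class 3 semaphorins were led by Sema3c, which signals through neuropilins and plexin-D1 in the growing heart and vessels. Sema3c had 105, 54.3 and 154 CPM in control replicates 1, 2 and 3 and 196, 235 and 317 CPM in senescent replicates 1, 2 and 3. Control values spread by nearly 3 times, yet the groups were apart, with a fold of 2.54 (log2 1.34, SE 0.35, 95% interval 0.53 to 2.16, adjusted p = 0.0173, and 0.00251 with the replicate block). Its adjusted p was 0.0517 without senescent replicate 2 and 0.0708 without senescent replicate 3. Per kb of exon it was the most abundant class 3 semaphorin in both groups, at 19.1 and 45.4 CPM per kb.

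The other 6 class 3 genes did not pass the test. Sema3a, a repellent of axons and of vessel cells, was at 8.28, 21.4 and 17.2 CPM in control and 11.99, 20.6 and 24.0 CPM in senescent libraries, which overlapped, and its log2 fold change of 0.31 (adjusted p = 0.521) was -0.08 without control replicate 1. Sema3b was at 13.5 ± 3.43 and 15.3 ± 0.257 CPM (log2 0.20, adjusted p = 0.401). Sema3d, at 1.14, 1.86 and 3.39 CPM in control and 1.67, 8.63 and 7.49 CPM in senescent libraries, had a wide interval (log2 1.13, 95% interval -0.17 to 2.43, adjusted p = 0.135). Sema3e, the ligand of plexin-D1 that needs no neuropilin, was at 3.46, 7.78 and 3.45 CPM in control and 5.08, 13.9 and 9.65 CPM in senescent libraries (log2 0.89, 95% interval -0.05 to 1.82, adjusted p = 0.108). For both Sema3d and Sema3e the adjusted p fell under 0.05 with the replicate block, at 0.0144 and 0.00763. The rare Sema3f (log2 -0.31, adjusted p = 0.477) and Sema3g (log2 -0.25, adjusted p = 0.251) were at most 2.12 CPM in any library. On chromosome 5 Sema3d, Sema3a and Sema3e lie in a row, 535.9 kb and 421.8 kb apart.

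Among the semaphorins of classes 4 to 7, which are membrane proteins, Sema4g, Sema5a and Sema6a rose and Sema7a fell. Sema6a, a transmembrane ligand of plexin-A proteins, had 0.491, 0.989 and 1.04 CPM in control and 3.45, 3.75 and 3.42 CPM in senescent libraries, a fold of 3.07 (log2 1.62, SE 0.20, 95% interval 1.15 to 2.08, adjusted p = 0.000829). Sema5a, whose thrombospondin repeats set it apart from other classes, had 8.66, 10.8 and 7.79 CPM in control and 22.2, 22.8 and 21.8 CPM in senescent libraries, a fold of 2.39 (log2 1.26, SE 0.13, 95% interval 0.95 to 1.57, adjusted p = 0.000451). The 3 senescent libraries lay close together for both genes, and no control library reached them. Sema4g rose from 4.32 ± 1.36 to 9.69 ± 0.691 CPM (log2 1.12, SE 0.22, 95% interval 0.60 to 1.64, adjusted p = 0.00564). Sema5b was at 0.126 to 0.399 CPM in control and 0.45 to 0.736 CPM in senescent libraries, without overlap and under the filter.

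Sema7a, the lipid-anchored semaphorin that binds integrins and plexin-C1, had the highest level per kb of exon of the guidance genes when both groups were averaged, at 97.1 CPM per kb, while in control FAPs alone Unc5b was higher (118 beside 114). It had 366, 456 and 304 CPM in control replicates 1, 2 and 3 and 294, 247 and 254 CPM in senescent replicates 1, 2 and 3. The groups were apart by a narrow margin, between control replicate 3 and senescent replicate 1, and the fold was 0.715 (log2 -0.48, SE 0.15, 95% interval -0.83 to -0.14, adjusted p = 0.0313). The call was lost with library totals alone (log2 -0.27, adjusted p = 0.174), after quantile normalization (adjusted p = 0.0725), and without control replicate 1 (0.0623), senescent replicate 2 (0.108) or senescent replicate 3 (0.0998). Its receptor Plxnc1 was at 16.6, 7.13 and 12.4 CPM in control and 8.54, 3.97 and 4.50 CPM in senescent libraries. The groups overlapped, but each senescent library was under the control of its own number, and the log2 fold change was -1.02 (SE 0.35, 95% interval -1.84 to -0.20, adjusted p = 0.0468, and 0.00205 with the replicate block). Plxnc1 lost its call with library totals alone (adjusted p = 0.0858), in edgeR (0.0547), and without control replicate 1 or 3 or senescent replicate 2 or 3 (0.117 to 0.153).

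The remaining 8 tested genes of classes 4 to 7 (Sema4a, Sema4b, Sema4c, Sema4d, Sema4f, Sema6b, Sema6c and Sema6d) did not pass the test, at adjusted p values of 0.104 to 0.840. Sema4b, a membrane semaphorin, was at 10.9, 7.04 and 9.78 CPM in control and 6.57, 7.26 and 6.80 CPM in senescent libraries (log2 -0.38, adjusted p = 0.104). Sema4c, a ligand of plexin-B2, was at 42.5, 26.4 and 30.9 CPM in control and 28.2, 25.6 and 22.1 CPM in senescent libraries (log2 -0.37, adjusted p = 0.125, and 0.0393 with the replicate block). For both, control replicate 2 lay nearest the senescent libraries.

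Plexins, the semaphorin receptors, held the clearest single fall among receptors beside Unc5b and Ephb2. Plxna4 had 88.6, 63.9 and 69.5 CPM in control replicates 1, 2 and 3 and 40.3, 33.2 and 31.2 CPM in senescent replicates 1, 2 and 3. The groups were well apart, with a fold of 0.477 (log2 -1.07, SE 0.14, 95% interval -1.40 to -0.73, adjusted p = 0.00115). Plxna3 was at 23.8 ± 3.104 and 17.9 ± 2.63 CPM with groups that overlapped (log2 -0.41, SE 0.14, adjusted p = 0.0474). It lost its call under each other scaling (adjusted p = 0.0511, 0.0777 and 0.262), in edgeR (0.0624), and without control replicate 1 or 3 or senescent replicate 2 or 3 (0.118 to 0.16). Plxnb2, which with Plxna1 was the most abundant plexin per kb of exon, rose by a small step, from 337, 371 and 338 CPM to 416, 455 and 411 CPM (fold 1.23, log2 0.29, SE 0.08, 95% interval 0.10 to 0.48, adjusted p = 0.0214). Its adjusted p was 0.0622, 0.0785 and 0.0927 without control replicate 1, control replicate 3 and senescent replicate 2. Plxna1 was at 451 to 517 CPM in control and 400 to 469 CPM in senescent libraries (log2 -0.16, adjusted p = 0.213), and 10.7% of its exon bases lie under Gm26811 on the opposite strand.

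The neuropilins, co-receptors of class 3 semaphorins and of VEGF, did not pass the test in limma, edgeR or DESeq2, and 0 of the 2 had an unadjusted p under 0.05 in limma. Nrp1, the more abundant per kb of exon, had 215, 290 and 262 CPM in control and 223, 226 and 245 CPM in senescent libraries (log2 -0.13, 95% interval -0.40 to 0.13, adjusted p = 0.369). Nrp2 had 47.1, 131 and 43.8 CPM in control and 59.6, 61.9 and 61.7 CPM in senescent libraries. Control replicate 2 was over 2 times any other library, and without it the log2 fold change went from -0.08 (95% interval -0.95 to 0.78, adjusted p = 0.87) to 0.42 (adjusted p = 0.00324).

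Libraries that carried the same replicate number deviated together from their group means. With the replicate number as a block, 22 guidance genes rose and 10 fell, and each of the 24 genes called without the block was still called. The 8 genes added were Sema3d, Sema3e, Robo2, Efna5 and Epha7, with positive differences in all 3 numbered pairs, and Sema4c, Plxnd1 and Ephb4, with negative differences in all 3. Plxnd1, the receptor of Sema3e, was at 64.6, 59.3 and 53.9 CPM in control and 57.0, 41.7 and 39.9 CPM in senescent replicates 1, 2 and 3, with an adjusted p of 0.0675 without the block and 0.0124 with it. For Efna5 the values were 1.36, 3.76 and 2.67 CPM in control and 3.49, 5.14 and 4.39 CPM in senescent libraries, with an adjusted p of 0.0895 and 0.0163. What a shared number stands for is not given in the labels.

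**Figure D4:**
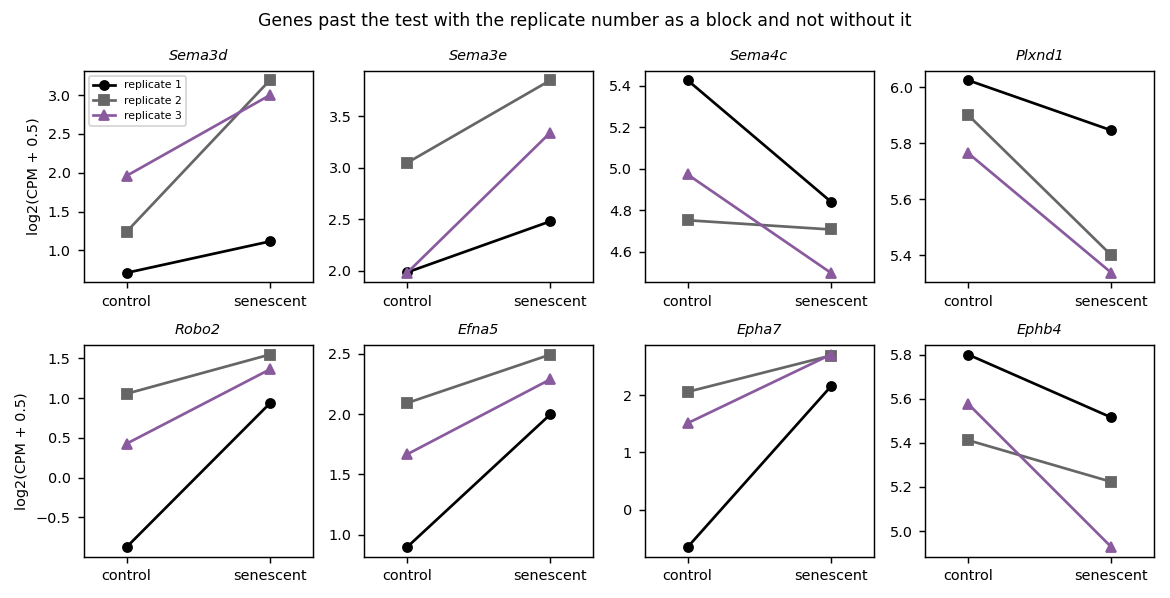
Log2(CPM + 0.5) in control and senescent FAPs for the 8 genes that passed the test only with the replicate number as a block, with a line joining the libraries of each replicate number. The lines of Sema3d, Sema3e, Robo2, Efna5 and Epha7 all go up and those of Sema4c, Plxnd1 and Ephb4 all go down, from starting levels that differ between numbers.

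Spread within the groups was not even. The median log2 range of a guidance gene across the 3 libraries was 0.54 in control and 0.34 in senescent FAPs. Control replicate 1 was lowest by over 2 times for 5 of the 59 genes (Sema3a, Robo2, Unc5c, Epha3 and Epha7), and control replicate 2 was highest by over 2 times for 2 (Sema3e and Nrp2) and lowest for 1 (Efna1). In the senescent group only senescent replicate 1 stood apart in this way, lowest for Sema3d. None of these 9 genes passed the test without the block, and for Nrp2, Sema3e, Robo2, Epha7 and Efna1 an adjusted p under 0.05 was reached when control replicate 2 was left out (0.00324, 0.0195, 0.0124, 0.0149 and 0.0113). For Robo2 and Epha7, though, the library that stood apart was control replicate 1. Their log2 fold changes were 1.51 and 2.09 without control replicate 2, and 0.54 and 0.73 without control replicate 1. For Sema3d an adjusted p under 0.05 was reached without senescent replicate 1 (0.0089).

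Guidance genes outside these families were taken from lists written by hand. Of 31 other guidance ligands and receptors (contactins, RGMs, Nogo receptors, plexin-domain proteins, VEGF receptors and others), 26 were listed and 25 tested, of which 9 rose and 5 fell (56.0%, beside 46.1% of all genes), with a median log2 fold change of 0.14. The smallest p values were those of Cntn2, Neo1 and Plxdc2. Cntn2, a lipid-anchored adhesion protein of axons, had 29.7, 24.2 and 21.7 CPM in control and 7.70, 7.88 and 5.87 CPM in senescent libraries (fold 0.298, log2 -1.75, SE 0.16, adjusted p = 0.000312). Plxdc2, a transmembrane protein with a plexin-like domain, rose from 97.7 ± 28.9 to 194 ± 11.2 CPM (log2 1.03, SE 0.18, adjusted p = 0.0035).

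Of 61 genes that carry guidance signals inside the cell (exchange factors, CRMPs, kinases, actin regulators and others), 58 were tested, 13 rose and 9 fell (37.9%, beside 46.1% of all genes), with a median log2 fold change of 0.02. Ablim1, an actin-binding LIM protein, rose from 2.48, 3.88 and 4.42 CPM to 18.2, 26.8 and 30.6 CPM, a fold of 6.29 (log2 2.65, SE 0.25, 95% interval 2.08 to 3.23, adjusted p = 0.000323). Vav3, an exchange factor that works downstream of Eph receptors, rose from 1.47 ± 0.279 to 4.72 ± 0.815 CPM (log2 1.41, SE 0.18, adjusted p = 0.000991).

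The 250 bases before RefSeq start sites (GRCm38.p6) were searched on both strands for motifs of factors that act in damaged, dividing or inflamed cells. A sequence was found for 53 of the 62 genes, and a gene counts where any of its starts has a match. The GC box (GGGCGG) was before 42 of the 53 genes, against 63.8% of the 10131 tested genes with a sequence, and before 11 of 13 that rose and 4 of 6 that fell. The p53 decamer, searched by its consensus, was before 5 of them (Efna4, Ntn3, Plxna3, Robo1 and Sema4d), beside 7.21% of all, and these 5 were 3 that rose, 1 that fell and 1 that did not pass the test. The NF-kB site was before 3 (Ephb2, Sema4a and Sema4c), beside 5.5% of all. Before the genes that changed, the AP-1 site (TGANTCA, 5.88% of all), the E-box bound by MYC (CACGTG, 9.9%) and the CHR element of cell cycle genes (TTTGAA, 12.6%) had no match, the TEAD site (GGAATG, 13% of all) matched before Ntn3 alone and the interferon response element, searched by its consensus (3.06%), before Plxnc1 alone. GC boxes overlap each other before Ntn4, and a match of letters is not a site in use.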

How the data were processed

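The data were bulk RNA-seq of 3 control and 3 senescent FAP libraries, grouped by their labels. The authors used a stranded mRNA kit, scaled counts in edgeR 3.10 (R 3.6.0) and deposited 1 value per gene and library, a signal in CPM of the effective library size; the submitters' processing notes name mm10. The aligner, counter, annotation and strand setting are not given in the sources used here. Every deposited value was a whole multiple of 1 read (100% of values, tolerance 0.01 reads), so reads were recovered for count tests. Of 16895 lines, 1 named no gene (0.0041% to 0.0070% of reads) and was left out.

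A gene was tested if 3 or more libraries had 0.5 CPM or more, with limma 3.58.1 (R 4.3.3, trended variance, two-sided) on log2(CPM + 0.5), with Benjamini-Hochberg adjustment over all 14776. The plan assumed CPM; the same test was kept for the scaled signal. Levels per kb used exon lengths of GENCODE M21, and coordinates and sequences came from RefSeq (GRCm38.p6). Statistics were tested on simulated data.

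Replicate numbers were taken from the labels. Deviations from group means correlated at 0.54, 0.31 and 0.21 between libraries of the same number and at -0.36 to 0.15 between others, so the numbers were treated as pairs in an alternative with the number as a block.

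Members and lists were chosen with earlier results of these data known. Named by rule were all class 3 semaphorins, members past the adjusted threshold with a log2 fold change beyond 1, the member with the highest level per kb in each family, and, for each list, its top 3 genes by p; 1 gene under this rule is not reported here, and other genes were named after their values were seen. Alternatives were other pseudocounts (0.1 and 1), filters (none and 2 CPM) and scalings, leaving out each library, the block, array weights, edgeR 4.0.16 quasi-likelihood and DESeq2 1.42.0 on the recovered reads. The 3 libraries per group limit the precision of every interval, and read numbers that of the rare genes.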

Additional observations from a re-analysis of the deposited data

How the results depend on the processing

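Of the 24 guidance genes called, 16 were called under all 17 alternatives that tested them, among them the 3 netrins, Slit1, Slit3, Robo1, Unc5b, Plxna4, Efna3, Efnb1 and Ephb2, and none turned direction. The counts moved more than the leading genes did. Of 17 guidance genes higher and 7 lower, the counts without 1 library ran from 13 to 22 higher and from 4 to 12 lower, where 4 were lower without control replicate 1, senescent replicate 2 or senescent replicate 3 and 12 without control replicate 2. At the study's threshold (10 higher, 2 lower) these ranges were 9 to 12 and 0 to 5, with 1 lower without control replicate 1, 4 without control replicate 2, 5 without senescent replicate 1 and 0 without senescent replicate 3. Array weights gave 26 higher and 16 lower (4 lower at the study's threshold). Library totals alone, which shift the median of all genes from -0.03 to 0.17, gave 4 lower and 0 at the study's threshold, and quantile normalization also gave 0 there. Beside these counts of 0 from limma, edgeR gave 2 and DESeq2 3 at that threshold, and 6 genes were lower after quantile normalization at an adjusted p under 0.05. Without a filter 20 were higher and 7 lower. The edgeR test gave 17 higher and 5 lower and DESeq2 19 and 7. The cause of these shifts was not tested.

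With the replicate block, which pairs libraries of one number, 22 guidance genes were higher and 10 lower (13 and 3 at the study's threshold), 10 other guidance ligands and receptors were higher and 5 lower, and 14 signal carriers were higher and 12 lower. Beside the 8 genes named in the report, the block changed the call of no guidance gene. In the list of other ligands and receptors (9 higher, 5 lower), the counts without 1 library ran from 4 to 9 and from 3 to 6, with 5, 4 and 5 higher and 3 lower each without control replicate 3, senescent replicate 2 and senescent replicate 3. There 3 were lower with library totals or in edgeR and 8 with array weights. Signal carriers (13 higher, 9 lower) ran from 7 (without senescent replicate 2) to 15 and from 7 to 12, with 20 higher and 5 lower by library totals and 19 lower with array weights.

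The log2 fold change turned sign only in genes that did not pass the test. Library totals alone gave Unc50 0.207, Nrp1 0.0783, Nrp2 0.128, Slit2 0.0646, Epha1 0.135, Sema4f 0.0825, Plxna1 0.0542 and Efnb2 0.0156. Quantile normalization gave Unc50 0.0575, Nrp1 0.0117, Nrp2 0.0061, Plxna1 0.0588, Sema4a -0.153 and Sema4d -0.0667. Array weights gave Nrp2 0.389, Epha1 0.0265, Sema4f 0.187 and Sema6d -0.0033. Unc50 was 0.0146 by median-of-ratios factors, 0.0238 in edgeR and 0.0356 in DESeq2. Without 1 library, Nrp2 ran from -0.363 to 0.425, Unc5c from -0.247 (without control replicate 1) to 0.799 (without control replicate 2), Sema3a from -0.0802 to 0.596, Epha3 from -0.674 to 0.18 and Epha1 from -0.208 to 0.153. In the same way Sema4f ran from -0.266 to 0.0478, Sema3b from -0.0176 to 0.339, Sema3f from -0.69 to 0.0088, Plxna2 from -0.0266 to 0.165, Sema6d from -0.101 to 0.179 and Unc50 from -0.0671 to 0.0389. The depth, 41412179 reads or more per library, limits the genes with few reads, such as Robo3 with 3 to 89.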
